A study of Mus musculus with 8 samples.

Results

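The 10 genes of MHC class II antigen presentation described here were H2-Aa, H2-Ab1, H2-Eb1, H2-DMa, H2-DMb1, H2-DMb2, H2-Oa, H2-Ob, Cd74 and Ciita. They were chosen by name, as the class II chains, the proteins that load them with peptide, the invariant chain and the class II transactivator, and all 10 had a row among the 13786 protein-coding genes of the count table. RNA had been sequenced from CD11c-positive splenocytes of 4 C57BL/6 mice and 4 B6.SLE123 mice. All 8 were untreated females aged 7 weeks, an age at which the lupus-prone strain has no overt disease, and each library came from 1 mouse. B6.SLE123 is a congenic strain on the C57BL/6 background, with the Sle1, Sle2 and Sle3 susceptibility intervals of an NZM strain. The genotype label rises by 1 from mouse to mouse in each strain (C57Bl/6 to C57Bl/9), so the strain was taken from the sample titles. CD11c also marks cells other than dendritic cells, and the isolation was on that marker alone as far as the sources used here state it.

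MHC class II molecules carry peptides from endosomes to the surface of dendritic cells, B cells and macrophages, where CD4+ T cells read them. The alpha and beta chains assemble in the endoplasmic reticulum with the invariant chain Cd74, which blocks the peptide groove and directs the complex to endosomes. There Cd74 is cut down by proteases, the peptide editor H2-DM exchanges the remaining fragment for other peptides, and H2-DO inhibits H2-DM. Ciita binds no DNA itself and switches class II genes on through factors that sit on shared promoter elements. These are the X box bound by RFX and the Y box bound by NF-Y.

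These elements are visible in the reference promoters. RefSeq (GRCm38.p6) promoters, 250 bases before to 50 bases after a gene's start, were found for 7 of the 10 genes, and in 6 of these 7, all but H2-DMa, the letters AAC stood 23 to 26 bases before TGATTGG on the strand of the gene. H2-Ab1, Cd74 and Ciita had no entry. The stretch of H2-DMb1 is not printed, since all 48 of its bases lie in annotated untranslated exon sequence. The sequences below are shown because they are the parts of the promoters on which RFX, NF-Y and Ciita are known to act, with the AAC of the X box and the TGATTGG of the Y box in capitals.
H2-Aa, chr17:34287867-34287914, minus strand: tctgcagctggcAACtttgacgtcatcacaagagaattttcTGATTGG
H2-Eb1, chr17:34305766-34305812, plus strand: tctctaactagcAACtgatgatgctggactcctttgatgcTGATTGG
H2-DMb2, chr17:34145116-34145163, plus strand: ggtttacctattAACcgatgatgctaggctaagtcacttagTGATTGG
H2-Oa, chr17:34092293-34092340, plus strand: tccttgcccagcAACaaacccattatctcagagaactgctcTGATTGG
H2-Ob, chr17:34238808-34238852, plus strand: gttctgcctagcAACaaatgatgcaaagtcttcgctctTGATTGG
Among 32851 RefSeq promoters, TGATTGG lay on the gene's strand before the start in 3.64% (7.23% on either strand), and AAC 15 to 30 bases before it on the gene's strand in 0.591% (1.26% counting both strands). The pattern was written down after the members' promoters had been seen. A match is a description of letters and not of binding, and H2-DMa without one is likewise only a statement about this window. Genes with the module included members that were called between the strains and members that were not.

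In the strain comparison, 5 members were higher in B6.SLE123 mice when scaled to library totals, by 1.19-fold to 1.41-fold. They were Ciita, the transactivator, the 3 classical chains H2-Aa, H2-Ab1 and H2-Eb1, and Cd74. The 5 genes of H2-DM and H2-DO were not called on that scale, at 1.02-fold to 1.15-fold, and of these H2-Oa lay next to the threshold. A scale relative to genes common to dendritic cells was added after the data had been seen. On it the chains and Cd74 overlapped between the strains. Ciita was higher there without overlap, and H2-DMa and H2-Ob were lower without overlap. The tests on that scale were not adjusted, and the share of all genes without overlap on it was not counted. Values are CPM, the deposited counts per 1000000 counts of the library, with library totals adjusted by edgeR's TMM factors, and a gene was called when its p from edgeR's quasi-likelihood test, adjusted by Benjamini-Hochberg over all 13786 genes, was under 0.05. The background was high: 53.4% of all genes were called, 26.7% higher and 26.6% lower in B6.SLE123, so 5 higher and 0 lower among 10 members are read against that share, and the count itself is near it. All 10 members had a positive log2 fold change, with a median of 0.22 against -0.0019 over all genes, and 0 of the 10 reached 1.5-fold. The 8 mice were separate animals, and the libraries of 1 strain differed by more than counting error.

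Library totals ran from 25761789 to 32931045 counts in C57BL/6 and from 25563070 to 37367094 in B6.SLE123, and the TMM factors from 0.9938 to 1.011. Depth did not limit these genes, since the lowest member count in any mouse was 3742, for H2-Oa. Itgax, which encodes the CD11c used for isolation, was at 1329 ± 77.9 CPM in C57BL/6 and 1543 ± 93.4 in B6.SLE123 (SD, n = 4 each). Genes that mark dendritic cells and were not used for isolation were present in every mouse, Flt3 at 466 ± 23.9 and 613 ± 12.8 CPM and Zbtb46 at 204 ± 3.18 and 255 ± 23 CPM. The libraries also held macrophage RNA: 12 red pulp macrophage genes, all detected, summed to 13260 to 17080 CPM in C57BL/6 and to 1919 to 3802 CPM in B6.SLE123. Of these, 12 of 12 were called lower in B6.SLE123, where 26.6% of all genes were. The list was Spic, Vcam1, Slc40a1, Hmox1, Adgre1, Cd163, Mertk, Axl, Csf1r, C1qa, C1qb and C1qc. The paper reports C1q subunits and Csf1r in monocyte-related dendritic cells of the spleen, so these genes do not mark macrophages alone. In such bulk samples, fewer cells of a type and less RNA per cell cannot be told apart.

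The classical chains form the molecule that reaches the surface. H2-Aa encodes the I-A alpha chain and H2-Ab1 the I-A beta chain. H2-Aa measured 4881, 4668, 4629 and 5435 CPM in C57BL/6 replicates 1 to 4 and 6039, 5741, 5704 and 6077 CPM in B6.SLE123 replicates 1 to 4. Every B6.SLE123 mouse lay above every C57BL/6 mouse, and replicate 4 was the highest of the C57BL/6 mice. Between strain means of 4903 ± 372 and 5890 ± 195 CPM the log2 fold change was 0.26 with an SE of 0.0598 (fold 1.2, 95% interval 1.09 to 1.33, adjusted p = 0.00339, edgeR quasi-likelihood test). H2-Ab1 measured 5681, 5313, 5383 and 6165 CPM in C57BL/6 and 7165, 6773, 6551 and 6847 CPM in B6.SLE123. The strains did not overlap here either, and the order of the C57BL/6 mice again ended with replicate 4 on top. The log2 fold change was 0.28, SE 0.0586 (fold 1.21, interval 1.1 to 1.34, adjusted p = 0.00221, edgeR).

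H2-Eb1 encodes the beta chain of I-E. In mice of the H2-b haplotype, to which C57BL/6 belongs, the partner gene of the alpha chain is defective and no I-E reaches the surface, but the H2-Eb1 message is still made. H2-Eb1 measured 4899, 4692, 4718 and 5599 CPM in C57BL/6 and 6220, 5851, 5648 and 6221 CPM in B6.SLE123. The gap was narrow, 5648 CPM in the lowest B6.SLE123 mouse against 5599 in the highest C57BL/6 mouse, and the groups did not overlap. Its log2 fold change was 0.27, SE 0.0659 (fold 1.2, interval 1.08 to 1.34, adjusted p = 0.00574, edgeR). A second I-E beta gene, H2-Eb2, was at 237 ± 28.4 and 289 ± 55.5 CPM, and was not called (log2 fold change 0.28, adjusted p = 0.0735). H2-Ea was not analysed here, and the haplotype of the libraries was not tested.

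Cd74, the invariant chain, took more counts than any other of the 13786 genes, before any correction for length. It measured 11077, 10262, 10877 and 12471 CPM in C57BL/6 and 13521, 13263, 12934 and 13261 CPM in B6.SLE123. The 4 B6.SLE123 mice were again above all C57BL/6 mice and were close to one another, with an SD of 240 CPM against 933 CPM in C57BL/6. The log2 fold change was 0.25, SE 0.0632 (fold 1.19, interval 1.07 to 1.32, adjusted p = 0.00716, edgeR). With the 10 members together, class II transcripts took 2.94%, 2.79%, 2.79% and 3.23% of the counts of the C57BL/6 mice and 3.58%, 3.46%, 3.4% and 3.54% of those of the B6.SLE123 mice. The shares did not overlap between the strains. In all, 5 members had groups that did not overlap, as did 48.9% of all genes.

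Ciita, the class II transactivator, differed most among the members. It measured 977, 966, 849 and 906 CPM in C57BL/6 and 1264, 1392, 1282 and 1285 CPM in B6.SLE123. The lowest B6.SLE123 mouse was well above the highest C57BL/6 mouse, and replicate 2 stood above the other three of its strain. The means were 924 ± 59.5 and 1306 ± 58.2 CPM, and the log2 fold change was 0.5, SE 0.0554 (fold 1.41, interval 1.29 to 1.55, adjusted p = 2.64e-05, edgeR). An exon of Ciita overlaps Dexi on the other strand. Dexi was at 69.4 ± 4.4 and 72.7 ± 6.73 CPM and was not called (adjusted p = 0.433, edgeR). The part of reads from the shared exon in the Ciita counts was not tested. The library kit kept strand, but whether the counting used it is not given in the sources used here.

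**Figure D1:**
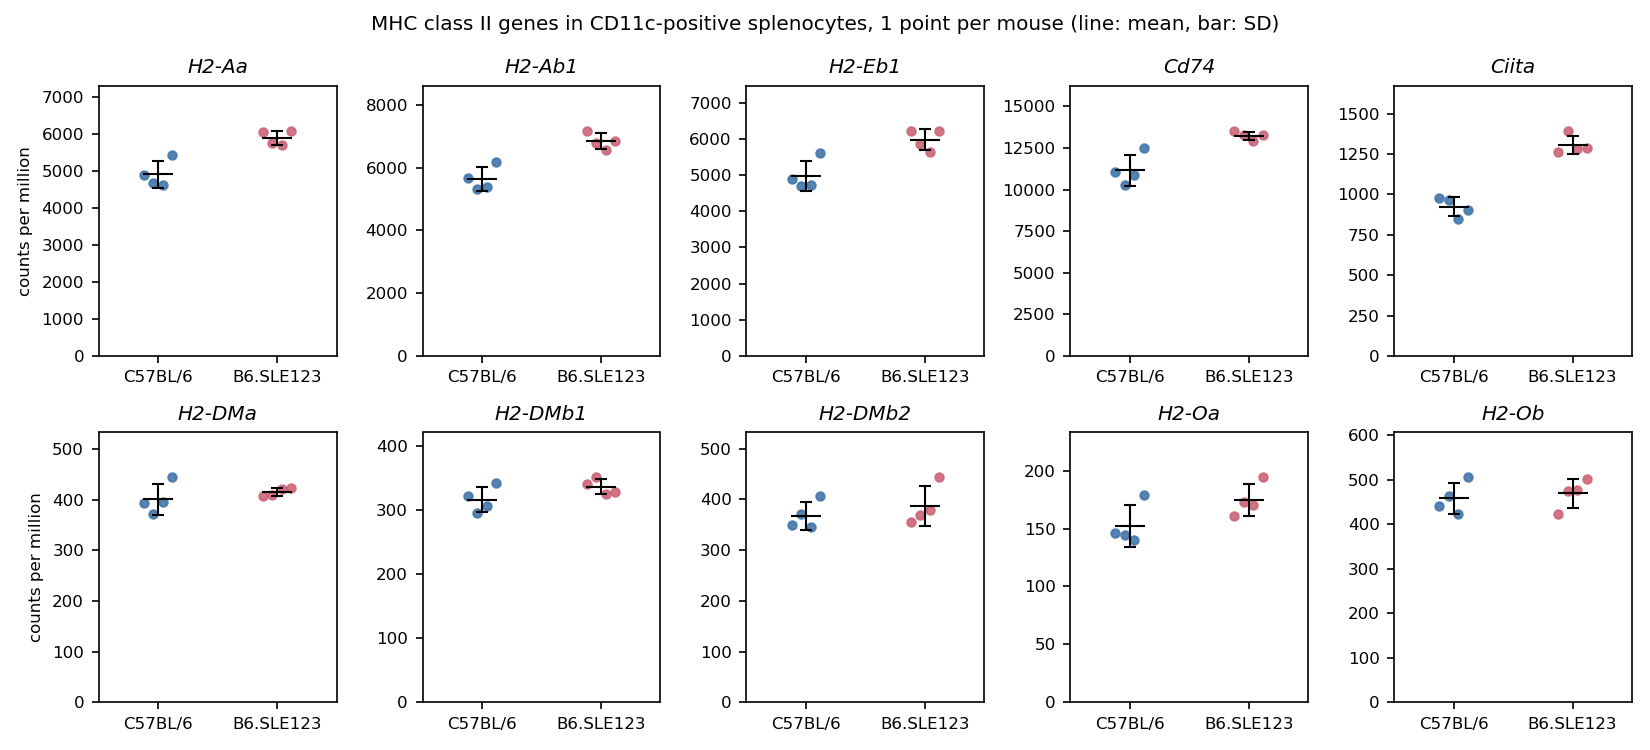
CPM on the library scale (y axis, from 0, one scale per panel) of each member in 4 C57BL/6 (blue) and 4 B6.SLE123 (red) mice, with the mean as a line and the SD as a bar. H2-Aa, H2-Ab1, H2-Eb1, Cd74 and Ciita do not overlap between the strains, while the 5 H2-DM and H2-DO genes in the lower row do.

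H2-DM is the peptide editor, a heterodimer of the H2-DMa alpha chain and a beta chain from H2-DMb1 or H2-DMb2. H2-DMa measured 393, 371, 395 and 444 CPM in C57BL/6 and 407, 409, 421 and 424 CPM in B6.SLE123. All B6.SLE123 values lay inside the C57BL/6 range, and C57BL/6 replicate 4 was the highest mouse of all. The log2 fold change was 0.05, SE 0.0541, and the interval of the fold, 0.945 to 1.14, spanned values below and above equality (adjusted p = 0.453, edgeR). An exon of H2-DMa overlaps Brd2 on the other strand, which was at 375 ± 5.88 and 402 ± 14.3 CPM.

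The beta chain genes H2-DMb1 and H2-DMb2 are neighbouring copies. Their longest GENCODE transcripts were 87.3% identical over 1157 aligned positions, and 27.2% of the 50-base words of H2-DMb1 and 21.2% of those of H2-DMb2 occurred in both, the only 1 of 45 pairs of members to share any, so the split of reads between them is uncertain. H2-DMb1 measured 322, 296, 306 and 342 CPM in C57BL/6 and 341, 351, 325 and 329 CPM in B6.SLE123. H2-DMb2 measured 349, 371, 346 and 406 CPM in C57BL/6 and 356, 370, 378 and 443 CPM in B6.SLE123. Both pairs of groups overlapped, with 1 B6.SLE123 mouse above the C57BL/6 range in each gene. The fold of H2-DMb1 was 1.06 (interval 0.973 to 1.16, adjusted p = 0.179, edgeR) and that of H2-DMb2 was 1.05 (interval 0.927 to 1.19, adjusted p = 0.438, edgeR). With the counts of both genes summed into 1 row before the fit, the log2 fold change was 0.0783 (adjusted p = 0.247, edgeR).

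H2-DO, the inhibitor of H2-DM, consists of the H2-Oa alpha and H2-Ob beta chains. H2-Oa measured 146, 144, 140 and 179 CPM in C57BL/6 and 161, 173, 170 and 194 CPM in B6.SLE123. All 4 B6.SLE123 mice were above 3 of the C57BL/6 mice, and C57BL/6 replicate 4 was above 3 of the B6.SLE123 mice. The log2 fold change was 0.2, SE 0.0823 (fold 1.15, interval 0.997 to 1.32, adjusted p = 0.065, edgeR), just outside the threshold. H2-Oa crossed that threshold without C57BL/6 replicate 4 (log2 fold change 0.276, adjusted p = 0.00489) and without B6.SLE123 replicate 1 (0.23, adjusted p = 0.0496), and also with upper quartile scaling (adjusted p = 0.0459) and in DESeq2 (adjusted p = 0.0482), so its call rests on these choices. Its exons overlap an antisense gene, BC051537, which was not in the table.

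H2-Ob was the member with the smallest fold. It measured 442, 463, 424 and 505 CPM in C57BL/6 and 424, 475, 476 and 502 CPM in B6.SLE123. All B6.SLE123 values lay within the C57BL/6 range. The fold was 1.02 (interval 0.917 to 1.14, adjusted p = 0.683, edgeR). Leaving out single mice took the log2 fold change from -0.0103 to 0.0765 in H2-Ob and from -0.0104 to 0.113 in H2-DMb2, so neither has a direction.

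Ratios of counts within a library do not depend on how libraries are scaled, and 9 were compared by exact two-sided permutation tests, for which the smallest p with 4 against 4 mice is 0.0286. Summed H2-DM over the summed classical chains was 0.0688, 0.0708, 0.0711 and 0.0694 in C57BL/6 and 0.0568, 0.0615, 0.0628 and 0.0625 in B6.SLE123. All 4 B6.SLE123 mice were lower, with less editor transcript for each classical chain transcript, by -13.1% (exact permutation p = 0.0286, adjusted over the 9 ratios p = 0.129). H2-Oa over H2-Ob was 0.329, 0.31, 0.331 and 0.355 in C57BL/6 and 0.38, 0.364, 0.357 and 0.387 in B6.SLE123. Here all 4 B6.SLE123 mice were higher, by 12.2% (exact permutation p = 0.0286, adjusted p = 0.129). In both the raw p was the smallest that the design allows, and none of the 9 ratios was under 0.05 after adjustment. With only these ratios at that smallest p, adjustment over the 9 could not have brought either under 0.05. The adjusted values therefore do not decide whether these ratios differ.

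The other ratios overlapped. Ciita over the classical chains was 0.0598 ± 0.00588 and 0.0699 ± 0.00477, higher in B6.SLE123 by 17.1% with 3 of 4 mice above the C57BL/6 range (exact permutation p = 0.0571, adjusted p = 0.171). Cd74 over the classical chains was 0.72 ± 0.0163 in C57BL/6 and 0.708 ± 0.0162 in B6.SLE123 (exact permutation p = 0.314). The balance of H2-Aa to H2-Ab1 was 0.87 ± 0.012 and 0.862 ± 0.0209, and that of H2-Eb1 to H2-Ab1 was 0.882 ± 0.0192 and 0.876 ± 0.0221. Thus the 3 chains and Cd74 kept close to a fixed proportion in both strains, each mean ratio differing by less than the SD between mice. H2-DO over H2-DM was 0.562 ± 0.0205 and 0.565 ± 0.0233 (exact permutation p = 0.914), and the ratios within H2-DM, H2-DMb2 over H2-DMb1 (exact p = 0.857) and H2-DMa over both beta chains (exact p = 0.514), also overlapped.

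**Figure D2:**
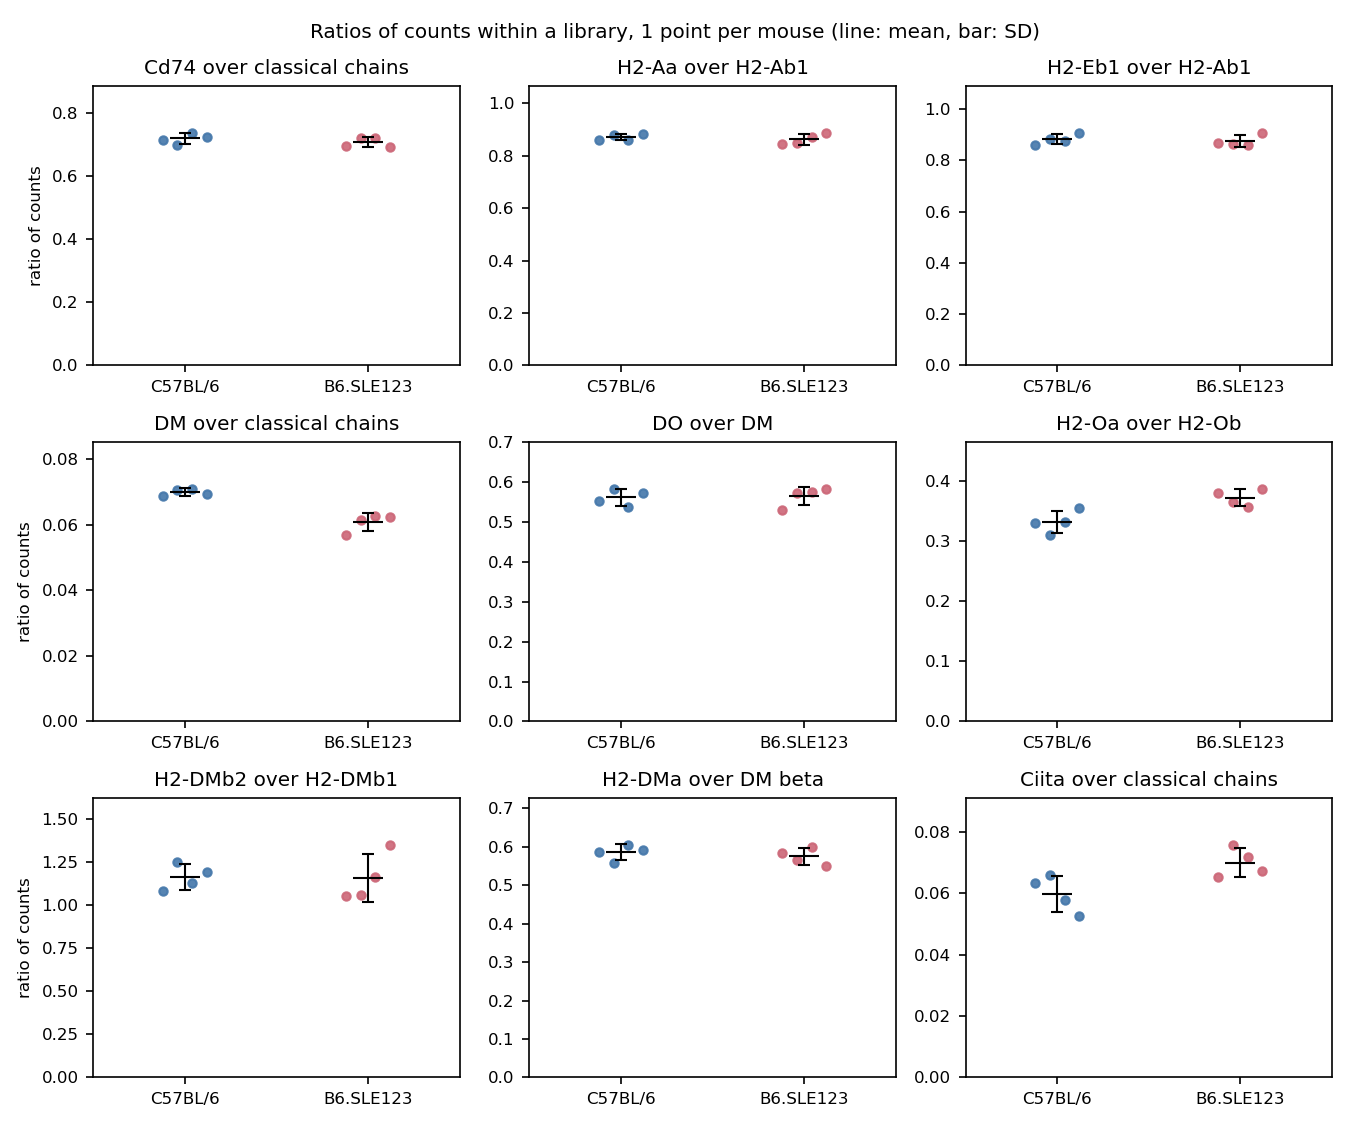
Ratios of counts within a library (y axis, from 0, one scale per panel) for 9 pairs of class II genes or sums, 1 point per mouse, C57BL/6 blue and B6.SLE123 red, mean as a line and SD as a bar. H2-DM over the classical chains is lower and H2-Oa over H2-Ob higher in all 4 B6.SLE123 mice, and the other 7 ratios overlap.

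Genes of dendritic cells moved as well, and the members were set beside them. The 7 genes listed as common to dendritic cells (Itgax, Flt3, Zbtb46, Dpp4, Cd24a, Bcl11a and Ccr7) were all called higher in B6.SLE123, where 26.7% of all genes were. Their median log2 fold change was 0.33, and together they summed to 2599 to 2944 CPM in C57BL/6 and 3289 to 3531 CPM in B6.SLE123. Divided by the summed counts of these 7 genes in the same mouse, a scale added after the data had been seen, H2-Aa differed by a log2 value of -0.02 (exact permutation p = 0.743), H2-Ab1 by -0.01 (exact p = 0.943), H2-Eb1 by -0.02 (exact p = 0.857) and Cd74 by -0.04 (exact p = 0.6). On this scale the strains overlapped in all 4 of these genes, which were called higher on the library scale. Itgax, the isolation marker, was the largest of the 7, at 1329 ± 77.9 CPM in C57BL/6 and 1543 ± 93.4 in B6.SLE123 (log2 fold change 0.22). The sum therefore weights Itgax most. Ccr7 is also counted among the genes of mature dendritic cells below, so the 7 are not strictly common to all dendritic cells.

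The sum of the 7 genes was itself higher in B6.SLE123 by a log2 value of 0.29, so this scale lowers every member by nearly the same amount and keeps their order. Ciita over the 7 genes measured 0.344, 0.328, 0.327 and 0.318 in C57BL/6 and 0.384, 0.394, 0.381 and 0.364 in B6.SLE123. All 4 B6.SLE123 mice were above the C57BL/6 mice, by 15.7% (exact permutation p = 0.0286, unadjusted and the smallest possible). H2-Ob had a log2 difference of -0.25 and H2-DMa of -0.24, with all 4 B6.SLE123 mice below the C57BL/6 range in each (exact permutation p = 0.0286, likewise unadjusted). H2-DMb1 (-0.2) and H2-DMb2 (-0.22) had 3 of 4 mice below that range (exact p = 0.0571), and H2-Oa overlapped (-0.09, exact p = 0.457). How many of all genes separate the strains on this scale was not counted.

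**Figure D3:**
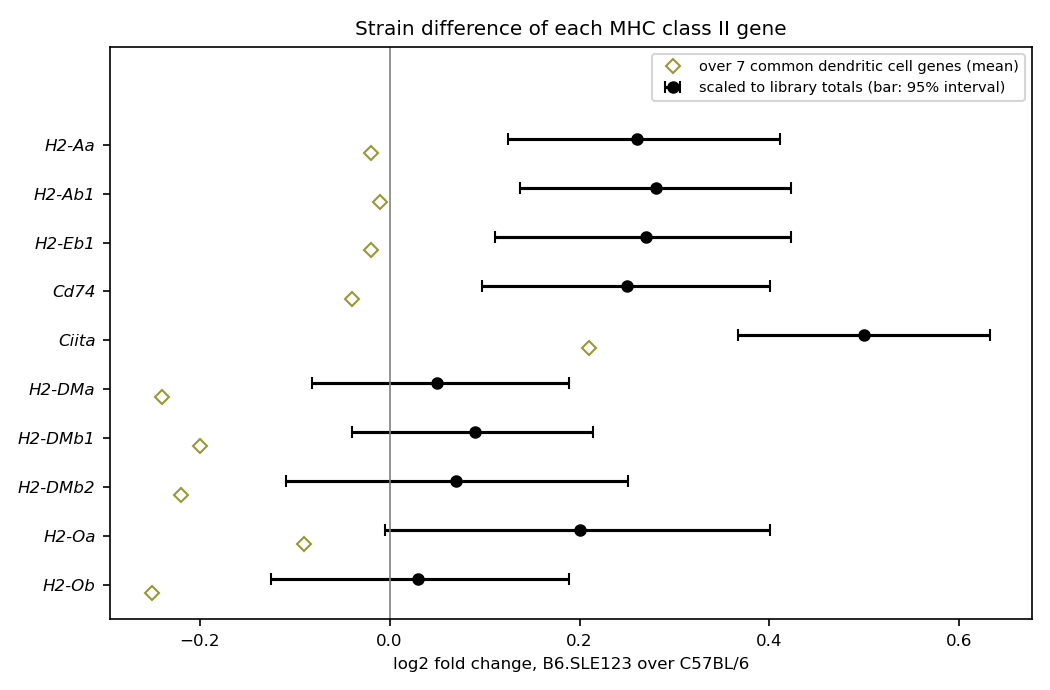
Log2 fold change of B6.SLE123 over C57BL/6 (x axis) for each member, scaled to library totals (black, bar: 95% interval) and over the 7 common dendritic cell genes (open diamonds, mean of 4 mice per strain). H2-Aa, H2-Ab1, H2-Eb1 and Cd74 lie at 0.25 to 0.28 on the first scale and at -0.04 to -0.01 on the second, while Ciita lies above 0 on both.

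Markers of further cell types and of dendritic cell subsets were counted in the same way. Over all genes 26.7% were called higher and 26.6% lower, 53.4% together. The type 2 (5 of 10 called), monocyte (4 of 8) and plasma cell (3 of 6) lists were near that share. Of 10 type 1 conventional dendritic cell genes 8 were higher and 1 lower in B6.SLE123 (median log2 fold change 0.87), with sums of 3318 to 3835 CPM in C57BL/6 and 5416 to 7118 CPM in B6.SLE123. Of 10 type 2 genes 2 were higher and 3 lower (median -0.27, or -0.149 without C57BL/6 replicate 4, sums 2597 to 2783 and 1773 to 2191 CPM). Sirpa was the largest gene of the type 2 sum, at 1784 ± 85.4 and 950 ± 101 CPM, and the fall of that sum came from Sirpa. Of 10 genes of mature dendritic cells 6 were higher and 1 lower (median 0.28, sums 1686 to 1816 and 2004 to 2296 CPM). B cells, which carry class II as well, had 9 of 12 genes lower and 1 higher (median -0.64, sums 963 to 1078 and 744 to 886 CPM). Monocyte genes had 4 of 8 lower and 0 higher (median -0.58, sums 409 to 494 and 223 to 265 CPM). Nr4a1 was the largest of them, at 288 ± 30.7 and 157 ± 8.37 CPM, and Ly6c2 and Ccr2 were not called. Plasmacytoid dendritic cell genes (2 higher and 3 lower of 8, sums 451 to 479 and 367 to 446 CPM), T cell genes (1 and 1 of 6, sums 42.9 to 49.9 and 45.6 to 52.6 CPM) and plasma cell genes (1 and 2 of 6, sums 293 to 311 and 256 to 326 CPM) were called in both directions. Cd5 was the 1 T cell gene called higher (19.2 ± 2.44 and 27.6 ± 2.2 CPM). The part of these marker shifts in the class II values was not tested.

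Compared per length, class II genes spanned a wide range of levels. Per kilobase of exon, Cd74 was at 6654 ± 556 CPM in C57BL/6 and 7888 ± 143 CPM in B6.SLE123, followed by H2-Eb1 (2560 ± 219 and 3079 ± 146), H2-Ab1 (2195 ± 151 and 2661 ± 98.8) and H2-Aa (1291 ± 97.9 and 1551 ± 51.3). The H2-DM genes came next, H2-DMb2 at 211 ± 16 and 221 ± 22, H2-DMb1 at 188 ± 12 and 200 ± 7.01, and H2-DMa at 116 ± 8.96 and 120 ± 2.57. Then followed Ciita (96.9 ± 6.24 and 137 ± 6.1), H2-Oa (108 ± 13 and 124 ± 9.91) and H2-Ob (85.2 ± 6.47 and 87.2 ± 6.02). Each neighbour in this order kept its place in 8 of 8 mice, except that H2-DMa was above Ciita in 4 of 8 and Ciita above H2-Oa in 3 of 8, so these 3 genes cannot be ordered over both strains. Ciita was below H2-DMa in the C57BL/6 mean and above it in the B6.SLE123 mean. The length was that of all annotated exons of a gene joined, 3798 bases for H2-Aa, 2568 for H2-Ab1 and 1944 for H2-Eb1. Their longest transcripts were 1128, 1212 and 1669 bases. The order of the classical chains thus depends on the length used. Agreement between mice does not bear on this, since all mice share the same length for a gene.

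**Figure D4:**
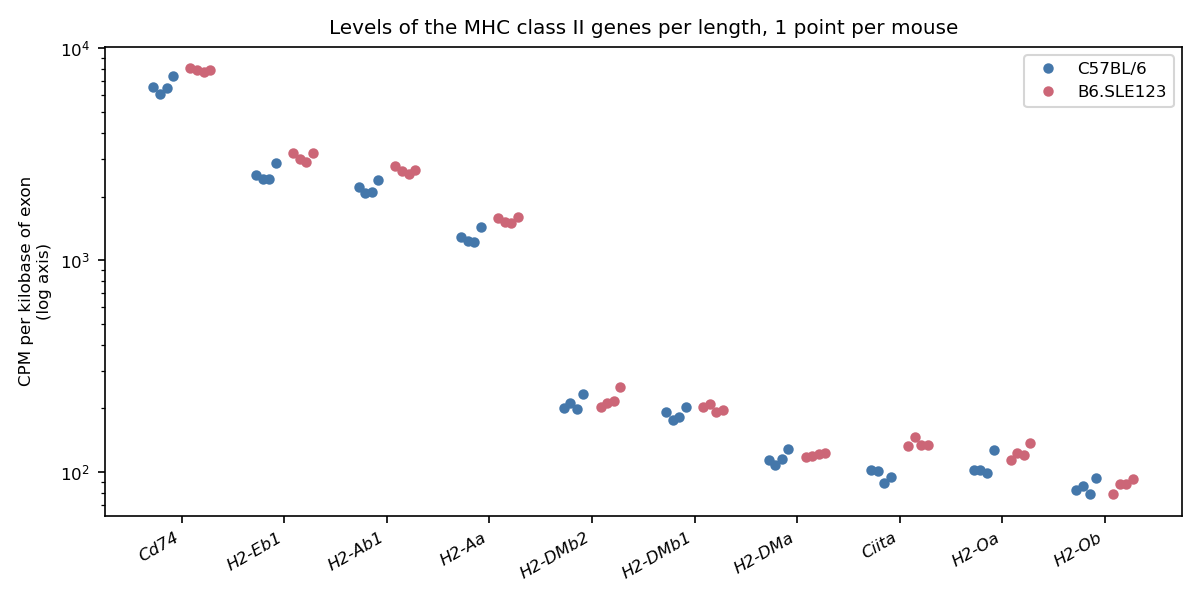
CPM per kilobase of exon (y axis, log scale) of the 10 members in each of 4 C57BL/6 (blue) and 4 B6.SLE123 (red) mice, ordered by mean. Length is that of all annotated exons of a gene joined, and the order of the classical chains depends on it. Cd74 and the 3 classical chains lie above the other 6 members in every mouse, with Ciita the one whose place changes most between the strains.

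Variation from mouse to mouse was described over the 8 mice with each strain centred on its own mean. The log2 CPM of H2-Aa had a Pearson r of 0.939 with H2-Ab1 and 0.984 with H2-Eb1, and H2-Ab1 had 0.948 with H2-Eb1. Among 10620 genes of at least 100 mean counts, the mean log2 CPM of the 3 chains had a Pearson r of 0.924 with Cd74, which ranked 18 of all genes, and r of 0.785 with H2-DMb1 and 0.775 with H2-DMa. H2-Oa had r = 0.742, H2-DMb2 0.504 and H2-Ob 0.416. Ciita had r = -0.117, the one value below 0 among the members. Outside the chains themselves the 5 genes closest to them were Asf1a (0.981), Pkp3 (0.973), Rpp25l (0.972), Arpc3 (0.964) and Jkamp (0.96). These values rest on 8 libraries, share depth and cell mixture, and are given as a description.

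Of the genes around class II, 46 of 49 listed were in the table, and 13 were higher, 16 lower and 17 not called in B6.SLE123, a called share of 63.0% beside 53.4% of all genes, and their median was -0.01 (log2 fold change). Among the 7 genes of the promoter complex that carries Ciita, 3 were higher and 1 lower (median 0.09). Nfya, a subunit of NF-Y, measured 162, 155, 164 and 156 CPM in C57BL/6 and 201, 211, 203 and 194 CPM in B6.SLE123. The strains did not overlap, and the log2 fold change was 0.35 (adjusted p = 3.71e-05, edgeR). Rfxap and Rfxank, both partners of Rfx5 in the RFX complex, moved in opposite directions, Rfxap by 0.28 (adjusted p = 0.00333) and Rfxank by -0.52 (adjusted p = 0.000255, edgeR). Rfx5 itself was at 81 ± 5.28 and 86.4 ± 6.35 CPM and was not called (adjusted p = 0.232), and Creb1, which also binds the X box region, rose by 0.19 (adjusted p = 0.00302, edgeR).

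Among 14 regulators of Ciita, 4 were higher and 2 lower (median -0.03). Jak2, a kinase of interferon gamma signalling, rose from 500 ± 24.8 to 742 ± 38.8 CPM (log2 fold change 0.57, adjusted p = 6.4e-06, edgeR), and Socs1, an inhibitor of that pathway, from 9.45 ± 1.12 to 14.3 ± 0.817 CPM (0.6, adjusted p = 0.000248). Irf8, a factor of dendritic cell identity, measured 771, 630, 759 and 671 CPM in C57BL/6 and 1083, 1135, 982 and 749 CPM in B6.SLE123, with replicate 4 inside the C57BL/6 range (log2 fold change 0.48, adjusted p = 0.00514, edgeR). Spi1, which encodes PU.1 and acts on the dendritic cell promoter of Ciita, rose by 0.14 (adjusted p = 0.0169), and Irf4 was at 105 ± 9.31 and 110 ± 11.5 CPM (adjusted p = 0.509, edgeR). The repressor Prdm1 fell by 1.31 on the log2 scale (adjusted p = 2.36e-05) and Pax5, the B cell factor, fell by 0.52 (adjusted p = 0.00112, edgeR).

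The endosomal proteases that cut Cd74 and antigen had the lowest median of the 6 lists around class II, with 9 of 11 lower, 1 higher and a list median of -1.39 on the log2 scale. Ctsl fell by 1.82, Ctsd by 1.73 and Lgmn by 1.7 on the log2 scale (adjusted p = 5.72e-07, 8.99e-06 and 2.17e-06, edgeR). Ctss, cathepsin S, the main protease for the last step of Cd74 removal in dendritic cells, measured 1040, 1008, 1151 and 1234 CPM in C57BL/6 and 806, 730, 838 and 852 CPM in B6.SLE123. No B6.SLE123 mouse reached the C57BL/6 range (log2 fold change -0.46, adjusted p = 0.000303, edgeR). The 1 gene that rose was Cst3, the cysteine protease inhibitor cystatin C, from 1724 ± 149 to 2868 ± 411 CPM (0.73, adjusted p = 0.000104, edgeR). The red pulp macrophage genes fell together with this list, with 12 of 12 lower and a list median of -2.38, and their part in it was not tested. Ifi30 was not analysed here.

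Of 8 genes for surface turnover and trafficking, 4 were lower and 1 higher (median log2 fold change -0.45). March8, a ligase that marks class II for removal, fell from 30.9 ± 2.98 to 8.79 ± 1.46 CPM (-1.82, adjusted p = 6.26e-07, edgeR), while March1, the ligase of that function in dendritic cells, was at 242 ± 5.66 and 260 ± 13.4 CPM and was not called (adjusted p = 0.068), nor was its antagonist Cd83 (362 ± 13 and 339 ± 37.9 CPM, adjusted p = 0.276). The tetraspanins Cd81 and Cd37 fell by 0.97 and 0.88 on the log2 scale (adjusted p = 3.6e-06 and 4.99e-07, edgeR), and the tetraspanin Cd9 rose by 0.47 (adjusted p = 7.64e-06). The macrophage list moved beside these falls as well.

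**Figure D5:**
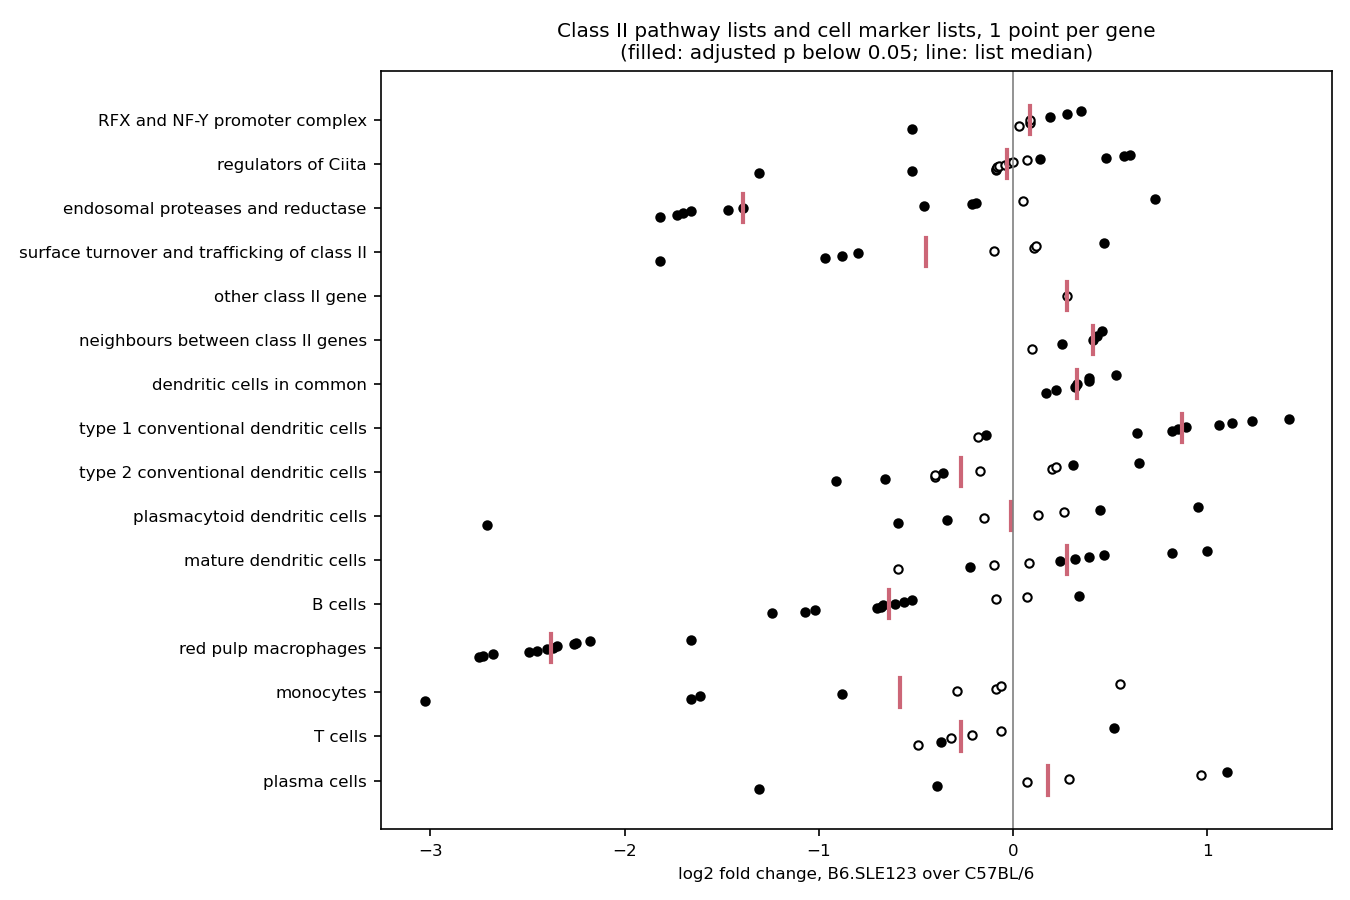
Log2 fold change of B6.SLE123 over C57BL/6 (x axis) for each gene of the 6 lists around class II and the 10 cell marker lists, filled where the adjusted p was under 0.05, with the list median as a red line. The endosomal proteases (median -1.39) and red pulp macrophage genes (median -2.38) lie to the left, and the neighbours of class II genes (0.41) and common dendritic cell genes (0.33) to the right.

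The position of the genes offered a further comparison. In the mm10 annotation (GENCODE M21), 8 members lie within 224.3 kb of chromosome 17 (34092340 to 34316674), Ciita lies on chromosome 16 (10480059 to 10528418) and Cd74 on chromosome 18 (60803848 to 60812652). The table held 5 other genes within that stretch of chromosome 17. Psmb8 and Psmb9 (immunoproteasome subunits) and Tap1 and Tap2 (the peptide transporter), which serve MHC class I, were all called higher, at log2 fold changes of 0.41, 0.46, 0.43 and 0.25 (adjusted p = 7.71e-05, 0.00104, 0.000213 and 0.00302, edgeR). Brd2 was at 0.1 and was not called (adjusted p = 0.0547). Within 1 stretch of the chromosome, therefore, the class I loading genes and the classical class II chains were called higher in B6.SLE123 on the library scale. Brd2 and the H2-DM and H2-DO genes were not called, and of these Brd2 and H2-Oa (log2 fold change 0.2, adjusted p = 0.065, edgeR) lay next to the threshold.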

How the data were processed

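CD11c-positive splenocytes of 4 C57BL/6 and 4 B6.SLE123 mice were profiled by stranded mRNA sequencing. According to the submitters' processing notes and the study's methods, the authors used FastQC for read quality, cutadapt for trimming, STAR for alignment to the mm10 mouse genome, and featureCounts for the counts of each gene (versions not given in the sources used here). The authors deposited raw counts per gene and mouse for 13786 protein-coding genes, each with a median of at least 5 counts in 1 strain. The same deposited table holds the authors' own DESeq2 comparison, with a mean normalised signal, log2 fold change, standard error and test score, p-values and a fold ratio. These columns were not used.

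Counts were fitted with edgeR 4.0.16 (R 4.3.3; TMM, quasi-likelihood test, strain as the only term) over the whole table, after the scripts had been tested on simulated data, and p-values were adjusted by Benjamini-Hochberg. The 95% intervals used 6 residual degrees of freedom. The edgeR test used more, so an interval can include 1 where the unadjusted p is under 0.05. For H2-Oa this p was 0.0364 (edgeR quasi-likelihood test). DESeq2 1.42.0 and limma 3.58.1 (voom) served as alternatives, with other scalings, a filter of 10 counts in every mouse, a replicate block, summed H2-DMb1 and H2-DMb2, and each mouse left out. Ratios were compared by exact two-sided permutation tests. Log2 CPM used a prior count of 2. Exon lengths and positions came from GENCODE M21, promoters from RefSeq.

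The members, gene lists, ratios and the rule for named genes were chosen with earlier results of these data known. Named were all members and, from each list, up to 3 of the largest called rises and falls plus a few fixed genes. Depth was 25563070 to 37367094 counts, so counting error is small beside the spread between mice. No library was a repeat of another.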

Additional observations from a re-analysis of the deposited data

Results flagged for a closer look

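In groups of 4 mice, 1 mouse stood apart from the other 3 by a large share of the group's range in 4 of 58 groups tested, where chance gives about 2.9. H2-Oa was highest in C57BL/6 replicate 4, at 7.49 log2 CPM against a strain median of 7.18, and leaving this mouse out brought H2-Oa past the threshold. Ciita was highest in B6.SLE123 replicate 2, at 10.4 log2 CPM against a median of 10.3. The log2 ratio of H2-Eb1 to H2-Ab1 was highest in B6.SLE123 replicate 4, at -0.138 against a median of -0.208. The log2 ratio of H2-DO to H2-DM was lowest in B6.SLE123 replicate 1, at -0.915 against a median of -0.801.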

How the results depend on the processing

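Of the 10 members, 5 were called with TMM scaling, and 6 with upper quartile scaling, in DESeq2 and with a replicate block, the added gene being H2-Oa each time (adjusted p = 0.00615 with the block). The replicate numbers only share a number: same-numbered mice had correlations of 0.076 to 0.23, and 2 of the 4 numbers correlated best with their own. With the replicate block 7183 genes were called, against 7356 without it and 6496 to 7013 with 1 mouse left out. H2-Aa, H2-Ab1, H2-Eb1, Cd74 and Ciita kept their direction and call under each library scaling, the filter, the block, DESeq2, limma and each left-out mouse, over log2 fold changes of 0.238 to 0.308, 0.251 to 0.314, 0.236 to 0.318, 0.207 to 0.293 and 0.458 to 0.526 with 1 mouse left out. Over the common dendritic cell genes, a scale chosen after seeing the data that takes nearly the same 0.29 from every member, the log2 differences below 0 were H2-Aa -0.0221, H2-Ab1 -0.0093, H2-Eb1 -0.0205, Cd74 -0.0402, H2-DMa -0.235, H2-DMb1 -0.201, H2-DMb2 -0.22, H2-Oa -0.0883 and H2-Ob -0.255, and that of Ciita was 0.21. With 1 mouse left out, the log2 fold change ran from -0.0104 to 0.113 for H2-DMb2, from -0.0103 to 0.0765 for H2-Ob and from 0.131 to 0.276 for H2-Oa. The log2 ratio differences ran from -0.0291 to 0.00268 (H2-Eb1 to H2-Ab1), from -0.0128 to 0.0376 (H2-DO to H2-DM), from -0.0953 to 0.0265 (H2-DMb2 to H2-DMb1), from 0.136 to 0.201 (H2-Oa to H2-Ob, p = 0.0571 in 5 of 8 exact permutation tests), from 0.168 to 0.275 (Ciita to the classical chains, exact permutation p = 0.0286 without C57BL/6 replicate 2) and from -0.218 to -0.169 (H2-DM to the classical chains). H2-Oa over H2-Ob stayed without overlap in each of these fits, so p = 0.0571 in these exact permutation tests reflects the unequal groups, not lost separation. The plasmacytoid marker median, near 0, was 0.00501 with upper quartile scaling and -0.0402 to 0.0118 with 1 mouse left out. The monocyte median was -0.299 with the filter. The cause was not tested. Only 4 mice per strain limit the precision, not depth.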
